A study of Mus musculus with 2931 samples.

Results

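The Car4+ capillaries of the mouse lung are the cells that the authors' subtype label gives that name, 11.3% of the 2931 endothelial cells (EC, the lining of blood and lymph vessels) in the study. The remaining 2599 cells carry 1 of 9 other labels, and 1463 of these are Car4- capillaries under the labels Early and Late. Distal lung of 10 mice was sorted into plates, mostly for the endothelial surface protein CD31, and full-length cDNA of each cell was cut with the Tn5 transposase and sequenced without molecular identifiers. Mice were taken before birth at E18.5 (E, embryonic day) and after birth at P1, P7 and P21 (P, postnatal day) while kept in normal air. A further group was taken at P7 from hyperoxia, an atmosphere with more oxygen than air. A female and a male stood for every group, and the mouse is the replicate throughout (n = 2 per group). The labels used here do not give the strain, the oxygen level or the length of exposure, nor if 1 name covers a single animal or a pool, so p-values measure the spread between mouse names.

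The lung exchanges gas across capillaries that hold a pair of endothelial kinds. Car4+ cells, also called aerocytes, are large thin cells that lie against the flat alveolar epithelium, carry the membrane enzyme carbonic anhydrase Car4 and answer to vascular endothelial growth factor (VEGF) made by that epithelium. The other kind, general capillary cells, holds most of the dividing cells of the capillary bed and serves as its reserve, and the peptide apelin and its receptor are known to be split between the kinds.

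A label made from expression is checked first against its markers. Of 6 markers of the kind, all 6 had their highest mean level in the Car4+ cells among the 8 subtypes that had at least 5 cells in several mice. With each cell thinned to 50000 reads, 96.4% of Car4+ cells had reads of at least 4 of the 6 markers, against 10.4% of Early and 6.75% of Late Car4- capillaries and 0 of 93 and 0 of 42 cells of the arterial labels. No Car4+ cell lacked all 6. Because the label and these genes come from the same cells, the contrast with other subtypes is given below as a description, with sizes and spread and without a test.

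Promoters of 4 of the markers are shown because the label is checked by these genes, which are higher in Car4+ cells than in other EC. Each is the 250 bases before the RefSeq start on GRCm38.p6, written 5′ to 3′ along the gene's own strand. Capitals mark the core of the ETS factor motif, TTCCGG or its reverse CCGGAA, a site type common in endothelial genes. They lie at chr11:84957504-84957753 (Car4, plus strand), chr14:103843702-103843951 (Ednrb, minus), chr2:110362994-110363243 (Fibin, minus) and chrX:48034854-48035103 (Apln, minus).
Car4: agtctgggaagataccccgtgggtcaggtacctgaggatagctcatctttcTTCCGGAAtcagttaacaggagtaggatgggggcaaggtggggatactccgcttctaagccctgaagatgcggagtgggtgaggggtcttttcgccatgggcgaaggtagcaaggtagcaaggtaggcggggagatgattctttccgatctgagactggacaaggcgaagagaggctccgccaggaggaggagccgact
Ednrb: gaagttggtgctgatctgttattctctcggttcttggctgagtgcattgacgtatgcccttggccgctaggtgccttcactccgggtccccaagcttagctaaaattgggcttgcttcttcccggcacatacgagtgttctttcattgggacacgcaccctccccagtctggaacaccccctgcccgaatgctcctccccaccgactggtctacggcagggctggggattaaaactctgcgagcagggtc
Fibin: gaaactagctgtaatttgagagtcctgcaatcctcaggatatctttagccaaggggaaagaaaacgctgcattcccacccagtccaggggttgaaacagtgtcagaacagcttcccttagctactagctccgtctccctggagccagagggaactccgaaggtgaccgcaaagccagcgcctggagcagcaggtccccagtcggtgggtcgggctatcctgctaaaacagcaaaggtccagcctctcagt
Apln: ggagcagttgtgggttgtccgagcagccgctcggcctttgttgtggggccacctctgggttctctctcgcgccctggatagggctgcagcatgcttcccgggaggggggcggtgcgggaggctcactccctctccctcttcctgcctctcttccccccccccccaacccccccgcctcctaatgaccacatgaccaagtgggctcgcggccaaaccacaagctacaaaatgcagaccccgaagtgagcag
The Car4 window holds the palindrome TTCCGGAA, in which the ETS core reads on both strands, and the other 3 windows and that of Emp2 hold no match. Of all 32851 promoters of the table, 3952 (12%) hold this core, of those of 9485 tested genes 2461 (25.9%), and of 78 genes past the fold and higher in Car4+ cells 12 (15.4%). The T-box core GTGTGA, or TCACAC on the other strand, was searched because T-box factors are high in these cells. It was in 5 of the 78 promoters (6.41%), in 11% of those of tested genes and in none of the 5 marker promoters at hand. A match is a description of letters and not a site, and no match says only that these letters are not in the window.

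No Car4+ cell was found at E18.5. The count of 0 allows a share of up to 1.01% of the CD31-gate cells of the female mouse and of up to 1.03% of those of the male mouse if 3 cells are taken as the limit, and the 95% Clopper-Pearson upper bounds are 1.24% and 1.26%. After birth the 2 mice of P1 held 59 and 17 Car4+ cells (female first, here and throughout), those of P7 42 and 24, those of P21 57 and 77, and those of hyperoxia 19 and 37. Shares were taken over CD31-gate cells, since 58 Car4+ cells came through a gate named mesench, 13 and 33 of them at P21, and 1 through the CD45 gate. At P1 the share was 18.4% (95% Clopper-Pearson interval 14.3 to 23.1) and 6.9% (3.99 to 10.96), at P7 11.6% (8.27 to 15.6) and 9.0% (5.42 to 13.9), at P21 15.6% (11.6 to 20.4) and 18.49% (13.8 to 24.01), and after hyperoxia 7.17% (4.37 to 10.97) and 14.6% (10.5 to 19.5). These intervals and limits cover counting error only. The female and male mouse of P1 and of hyperoxia lay further apart than the means of the postnatal groups, which were 12.7% ± 8.14 at P1, 10.3% ± 1.81 at P7, 17.05% ± 2.04 at P21 and 10.9% ± 5.23 after hyperoxia (SD, n = 2). The variance between the ages P1, P7 and P21 gave p = 0.533 in an exact permutation test over 90 assignments of 6 mice, 2-sided by construction, where the smallest possible p is 0.0667. Among CD31-gate capillary cells alone the shares were 17.98% ± 9.03, 14.9% ± 1.31, 17.95% ± 1.91 and 16.6% ± 7.48 in the same order. For hyperoxia against P7 the smallest exact p that 2 mice against 2 allow is 0.333, so the values stand without a test.

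**Figure D1:**
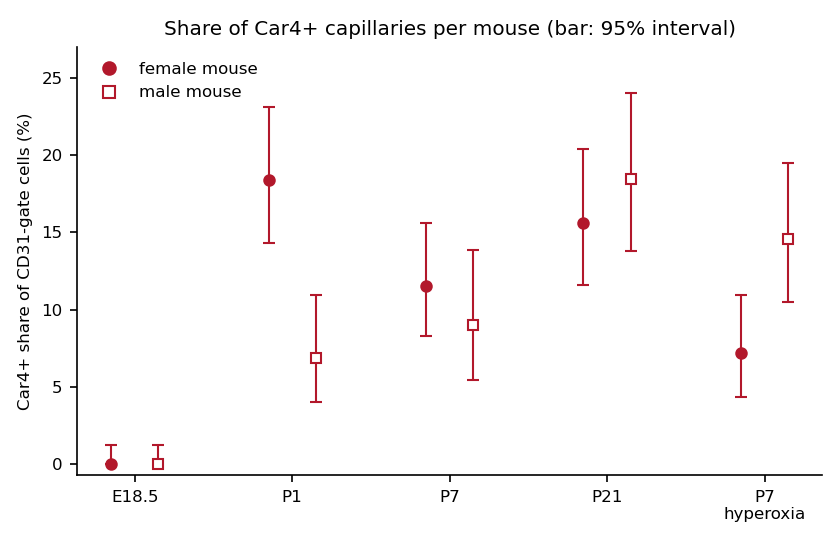
Share of Car4+ capillaries among CD31-gate cells (y axis, percent) in each mouse of the 5 groups (x axis); circles are female and open squares male mice, and bars are 95% Clopper-Pearson intervals. The E18.5 mice are at 0, and the mice of P1 and of hyperoxia differ more from each other than the means of the 4 postnatal groups do.

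The depth behind the levels was high in each cell and uneven between mice. Between 65819 and 2708820 reads fell in a Car4+ cell (median 639251), 242972000 in all, and the median cell had 3154.5 genes with a read. At 50000 reads per cell the median number of detected genes was 3280 and 1916 at P1, 2206 and 2942.5 at P7, 2520 and 1465 at P21, and 3047 and 2415 after hyperoxia, so the P21 male mouse had the fewest. The CD31-gate cells of the P1 and P21 female mice shared a sequencing run, and those of the P7, P21 and hyperoxia male mice shared another. For the hyperoxia female, P7 female and P1 male mice, no other mouse had CD31-sorted Car4+ cells in the same run, though mesench-gate cells of the P7 and P21 male mice were in the run of the P1 male mouse, and those of the P21 female mouse in that of the P7 female mouse. Reads were summed over the Car4+ cells of a mouse, and CPM (counts per 1000000) are these reads as a share of that sum, which are not divided by gene length and so rank a gene across samples, not against another gene. Of marker genes of other cell types, Sftpb, Dcn, Nkg7 and C1qa had 0 reads in Car4+ cells. Reads were found of 16 of 17 epithelial, 15 of 16 mesenchymal and 13 of 15 immune markers. The summed level of 17 epithelial markers was 148.1 to 434.9 CPM per mouse, led by Hopx, Ager and Abca3, that of 16 mesenchymal markers 8.35 to 45.3, of 15 immune markers 0.149 to 55.2 and of 8 erythroid and platelet markers 0 to 453.5.

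Against all other EC of the same mice, 1108 of 12403 genes (8.93%) lay past a 4-fold difference with the same sign in each of the 8 postnatal mice. Higher in Car4+ cells were 0.992% of genes and lower 7.94%, which is 985 genes, so the kind was set apart by far more genes at low level than at high level. Against the Car4- capillaries alone, the nearest subtypes, 725 of 11858 genes (6.11%) were past the fold, 0.945% higher and 5.17% lower, and 100 higher and 570 lower genes were shared by both contrasts. Of the higher genes, 94.3% had their highest mean level in Car4+ cells among the 8 subtypes. The fold rule was applied to the same cells and makes such a rank likely, so it is no separate support. The median fitted log2 difference of all tested genes was -0.38 against other EC and -0.30 against Car4- capillaries. Log2 differences below are fitted with the mouse as a term, with their standard error (SE), and means are over 8 mice ± SD. Where Car4+ cells have few reads of a gene, the size of its fitted difference depends on the prior count that edgeR adds.

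The enzyme that gives the kind its name is described first. Car4 (chr11:84957786-84966044), which converts carbon dioxide and bicarbonate at the cell surface, stood at 4271 and 3397 CPM at P1, 5092 and 9358 at P7, 6077 and 9079 at P21, and 3907 and 5481 after hyperoxia. All other EC of the same mice lay at 128.7 to 674.4 CPM, so no mouse overlapped. The mean was 5832 ± 2261 CPM against 304.2 ± 169.5, a log2 difference of 4.60 (SE 0.22), and the next highest subtype was the proliferative EC at 435.4 ± 396.7 CPM over 7 mice. At 50000 reads, 98.2% of Car4+ cells and 29.7% of Car4- capillaries had a Car4 read.

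Ednrb (chr14:103814625-103844402), the endothelin B receptor, which clears the vasoconstrictor endothelin from blood and signals to relax vessels, stood at 2826 and 3344 CPM at P1, 2547 and 3021 at P7, 3112 and 3307 at P21, and 1658 and 2163 after hyperoxia in Car4+ cells. Other EC had 54.4 to 380.9 CPM. The lowest Car4+ mice were those of hyperoxia, and still no mouse overlapped with other EC. Arterial EC I came next with 1007 ± 1185 CPM over 5 mice, among them a single mouse at 3059 CPM, so between these subtypes the mice did overlap. Edn1 (chr13:42301476-42307990), the gene of endothelin itself, was at the other end, with 3.22 ± 6.16 CPM in Car4+ cells and 197.8 ± 118.4 in other EC (log2 -8.53, SE 1.43). Its reads overlap the antisense gene Gm47118, and whether counting used strand is not given, so reads of the pair cannot be told apart.

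Of the VEGF genes, the main receptor was past the fold and the ligands were low. Kdr (chr5:75932827-75978458), the main VEGF receptor of endothelium, had 2616 and 1219 CPM at P1, 2548 and 3017 at P7, 2292 and 2234 at P21, and 2049.7 and 2182.3 after hyperoxia, and other EC 355.95 to 677.4. That is a log2 difference of 2.40 (SE 0.18), past the fold, with the P1 male mouse lowest among Car4+ cells. Its co-receptor Nrp1 differed by 1.78, short of the fold, and Flt1 and Flt4, the other VEGF receptors, by 0.55 and 0.86. Low were Nrp2 (-7.31), the ligands Vegfa (1.56 against 28.5 CPM, -4.98) and Vegfc (-8.10), the tip cell gene Esm1 (-9.34) and the angiopoietin receptor Tek (54.4 against 530.4 CPM, -3.51), whereas its partner Tie1 was at -0.48. Of 16 genes of VEGF, Tie and apelin signalling, 2 were past the fold and higher and 6 lower, with a median of -0.64. Of all tested genes 0.992% were higher and 7.94% lower.

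Apelin and its receptor stood on opposite sides. Apln (chrX:48025146-48034853), the peptide ligand, had 446.1 and 384.5 CPM at P1, 641.6 and 454.02 at P7, 410.8 and 682.97 at P21, and 949 and 778 after hyperoxia in Car4+ cells and 18.02 to 281.8 in other EC. The highest values in both classes were those of the hyperoxia mice, and the classes did not overlap. Aplnr (chr2:85136225-85139923), its receptor, had 12.4 and 53.2 CPM at P1, 7.5 and 3.49 at P7, 17.3 and 0.169 at P21, and 21.8 and 7.12 after hyperoxia in Car4+ cells against 213.9 to 770.1 in other EC, a log2 difference of -4.89 (SE 0.76). In single cells at 50000 reads, 69.6% of Car4+ cells had Apln reads and no Aplnr read, and 5.42% had both. Among 1446 Car4- capillaries 48.5% had Aplnr and no Apln read and 12.7% had both. A ligand and receptor pair of like arrangement was Kitl and Kit, chosen after its values were seen. Kitl, the ligand of the receptor Kit, was at 1078 ± 329.8 CPM in Car4+ cells and 218.6 ± 50.3 in other EC (log2 2.54), and Kit at 11.7 ± 12.3 and 459.1 ± 297.5 CPM (log2 -5.39).

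**Figure D2:**
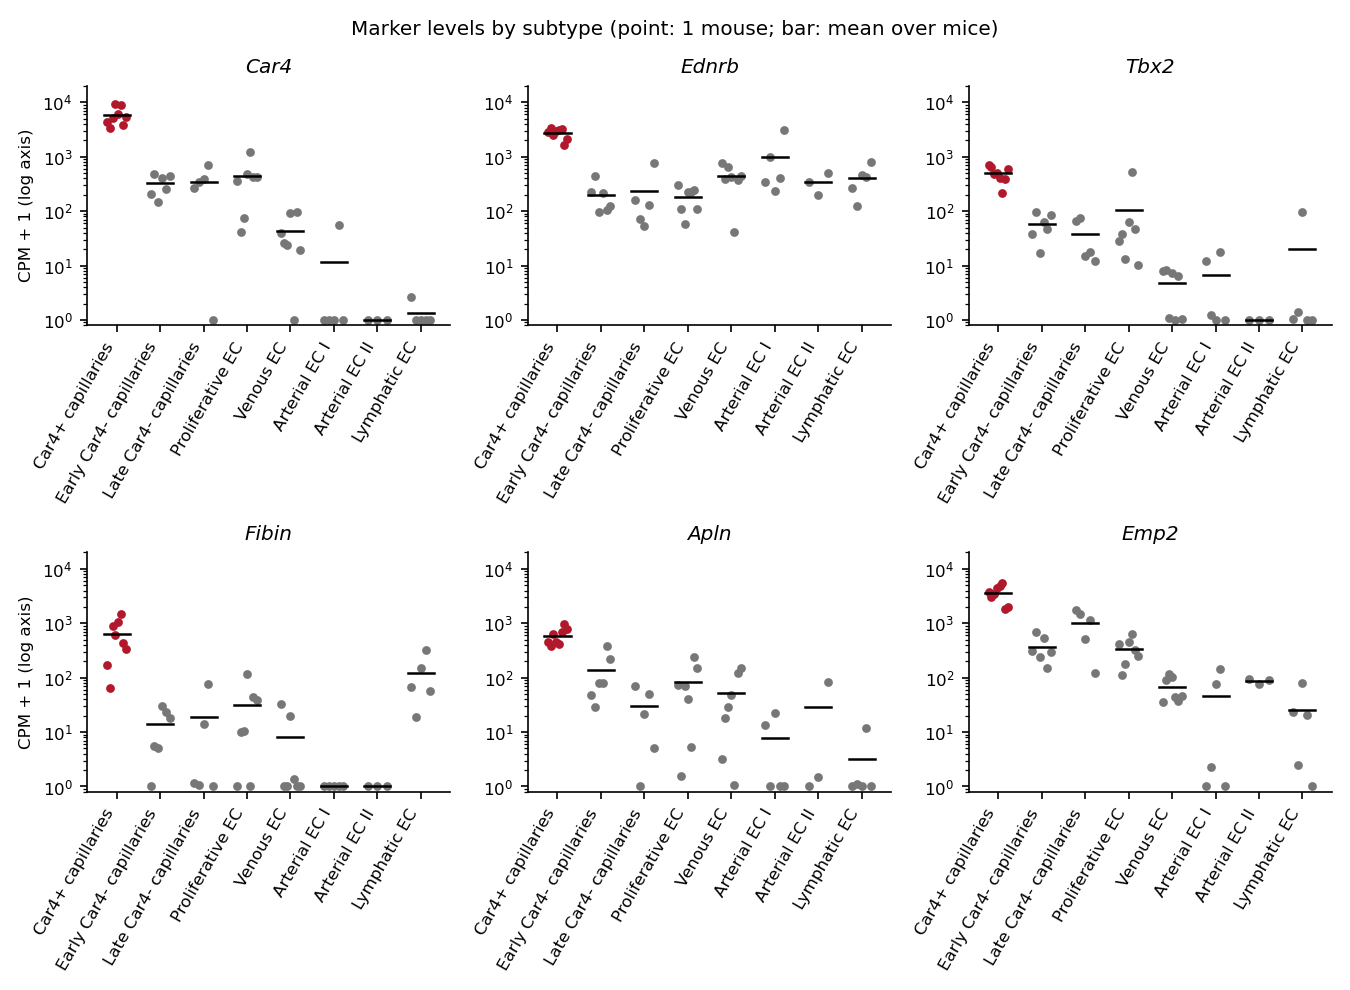
Level of the 6 markers (y axis, CPM + 1, log scale) in each mouse by subtype (x axis); points are mice with at least 5 cells of a subtype, and bars are means over mice. In each panel the Car4+ capillaries have the highest mean. Ednrb also reaches 3059 CPM in 1 mouse of Arterial EC I, and Tbx2 530.8 CPM in 1 mouse of proliferative EC.

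The transcription factors were led by a T-box gene. Tbx2 (chr11:85832551-85841948), a repressor of the family, was at 701.4 and 657.4 CPM at P1, 472.5 and 500.6 at P7, 409.2 and 211.997 at P21, and 386.3 and 606.02 after hyperoxia, with the P21 male mouse lowest, and other EC at 13.2 to 54.3 CPM. The log2 difference was 4.15 (SE 0.27). Proliferative EC came next at 103.4 ± 189.4 CPM over 7 mice. Among them the P21 male mouse, with 7 such cells, had 530.8 CPM, so between these subtypes the mice did overlap. Tbx3, a close relative of Tbx2, was at 579.1 ± 129.6 against 178.6 ± 50.7 CPM, a difference of 1.99 that ended just short of the fold. The transcript Tbx3os1 (chr5:119570130-119671365) lies on the opposite strand and overlaps exons of Tbx3, and it had 166.9 ± 47.5 against 9.43 ± 6.06 CPM (log2 4.67), a value that may hold reads of Tbx3. The T-box genes Tbx4 and Tbx5 were near 0 in both classes, at 0.873 against 1.17 and 0.408 against 1.5 CPM. Prdm1, the repressor Blimp-1, was past the fold too, at 244.9 ± 118.6 against 26.4 ± 16.3 CPM (log2 3.55), and the homeobox gene Meis1 differed by 1.72. Of 32 tested factors of the vessel wall, 2 were past the fold and higher, Tbx2 and Prdm1, and 7 lower, against 0.992% and 7.94% of all tested genes. Among the lower were Hey1 (-6.66), an effector of Notch, Nr2f2 (-4.08), a factor of veins, Foxo1 (-3.01) and Foxp1 (-2.16). The lung vessel factor Foxf1 (0.72) and Klf4 (0.77), which answers to blood flow, were near other EC, and the median of the list was -0.19.

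The gene with the greatest fitted difference among the 15 higher genes named by rule was Fibin (chr2:110360917-110363183), which encodes a secreted protein first known from the growth of fins and limbs. It had 173.5 and 62.8 CPM at P1, 888 and 618.6 at P7, 1038 and 1501 at P21, and 433.4 and 335.6 after hyperoxia in Car4+ cells, lowest in the P1 mice, and 4.16 to 70.6 in other EC. The log2 difference was 4.93 (SE 0.47), and lymphatic EC came next at 121.7 ± 120.8 CPM over 5 mice. A pair of sulfotransferases, Chst1 and Chst2, which add sulfate to sugar chains, followed at 249.9 ± 66.01 against 11.6 ± 7.05 CPM (log2 4.86) and 408.2 ± 182.4 against 31.7 ± 20.9 CPM (log2 4.09). Emp2 (chr16:10281749-10313968), a small protein that spans the membrane, was at 3728 and 3029 CPM at P1, 3408 and 4398 at P7, 4742 and 5534 at P21, and 1829 and 2004 after hyperoxia against 158.3 to 1121 in other EC (log2 3.50, SE 0.17). Late Car4- capillaries were the next subtype for Emp2, with 1012 ± 688 CPM over 5 mice.

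The rest of the leading 15 had varied roles. Sirpa, the receptor of the signal CD47, had 246.3 ± 106.7 CPM (log2 4.40), and Cd47 itself 683.9 ± 265.97 against 395.4 ± 157.2 CPM (log2 1.05). Itgb5, an integrin subunit that pairs with the alpha v chain, differed by 4.36 and Itga3, a laminin-binding integrin chain outside the 15, by 2.81. The keratin Krt80 (4.46, overlapped on the other strand by Gm35853), the reticulon Rtn1 (4.24) of the endoplasmic reticulum, the ferric reductase Frrs1 (4.05) and the membrane protein Tmeff2 (3.60) complete the set. All 15 were higher in 8 of 8 mice, which the naming rule requires, and all were past the fold against Car4- capillaries as well. Abundant genes outside that rule were picked after their values were seen: Igfbp7, a binding protein of insulin-like growth factors (4545 ± 1411 against 568.5 ± 135.7 CPM, log2 3.24), the myelin and junction protein Pmp22 (3.16), the cytochrome Cyp4b1 (2.81), the protease inhibitor Timp3 (2.504) and the cell cycle inhibitor Cdkn2b (3.77).

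**Figure D3:**
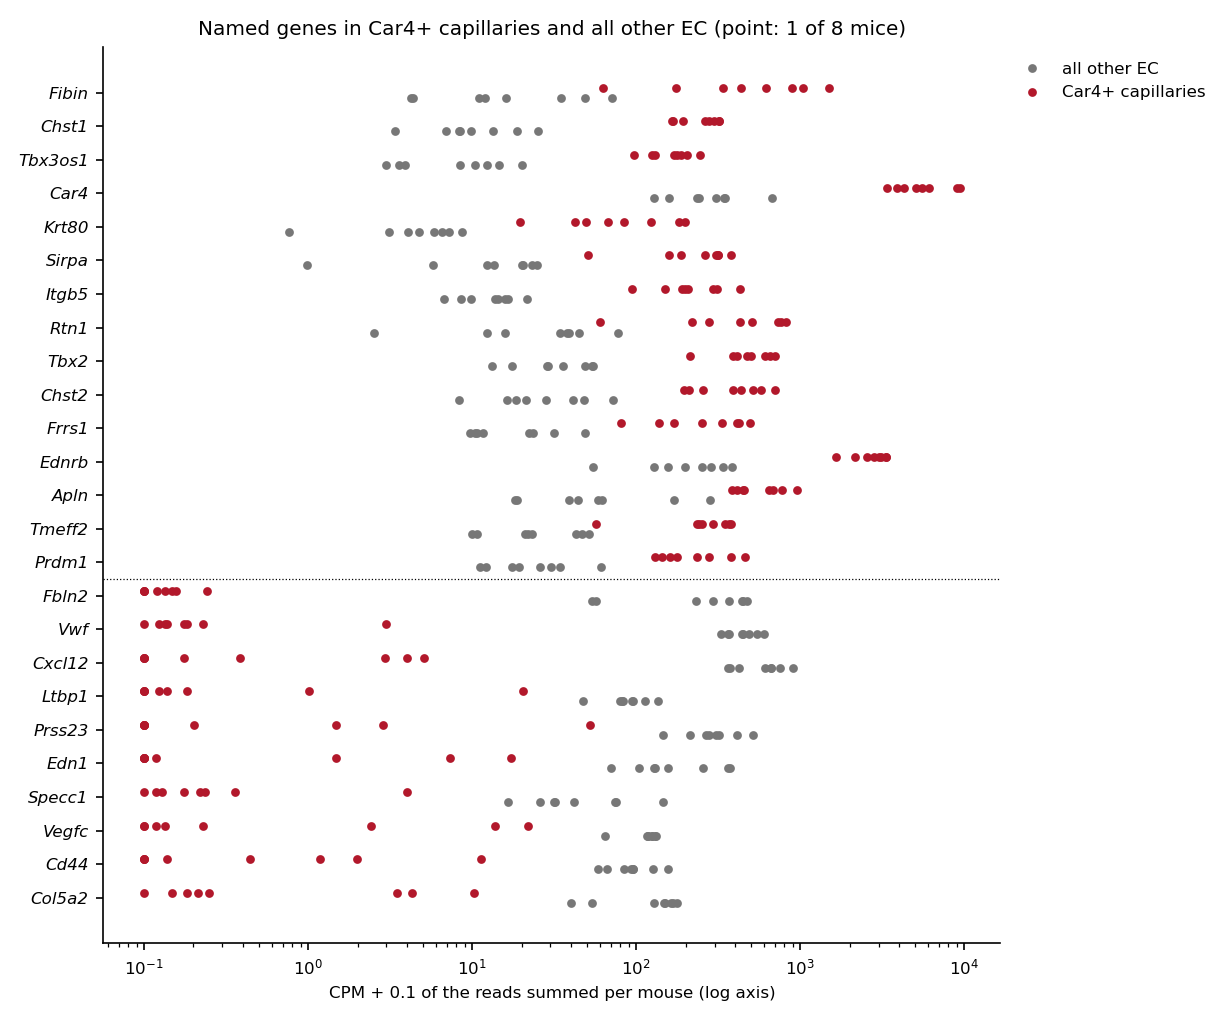
Levels of the 15 higher and 10 lower named genes (y axis) on a log axis of CPM + 0.1 (x axis), with 1 point per mouse for Car4+ capillaries and for all other EC. In the Car4+ cells the 10 lower genes lie at or near 0 in most mice. Each of the 15 higher genes lies above other EC of the same mouse in 8 of 8 mice, which the naming rule requires.

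The 10 lower genes taken by rule included a pair that was close to 0 in Car4+ cells. Fbln2 (chr6:91212455-91272540), a matrix protein of the fibulin family, had 12 reads in all Car4+ cells and 404189 in other EC, and no Car4+ mouse exceeded 0.143 CPM where other EC had 53.5 to 471.7. Vwf (chr6:125546774-125686679), the clotting protein von Willebrand factor, had 0 and 0.0746 CPM at P1, 0.024 and 0.129 at P7, 2.87 and 0.0376 at P21, and 0.0836 and 0.0336 after hyperoxia, and other EC 326.8 to 598.7. Most of the Vwf reads of Car4+ cells were of the P21 female mouse. The other lower genes of the rule were the chemokine Cxcl12 (-9.69), Ltbp1 (-9.49), which anchors latent TGF-beta, the protease Prss23 (-9.21, overlapped by Prss23os), Edn1, Specc1 (-8.27), Vegfc, the hyaluronan receptor Cd44 (-8.04) and the collagen chain Col5a2 (-8.00).

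Marker lists of other EC kinds were low against all other EC, a class that includes the cells these lists mark. Of 12 markers of Car4- capillaries 10 were past the fold and lower (median -4.65), of 9 arterial markers 7 (-6.72), of 10 venous markers 8 (-6.29), of 7 lymphatic markers 4 (-6.96) and of 14 proliferation genes 8 (-6.81), and none of these lists had a gene past the fold and higher. Of all tested genes 7.94% were lower and 0.992% higher. Against Car4- capillaries alone, 10 of 12 Car4- markers were lower (-4.66), 5 of 9 arterial (-5.49), 2 of 8 venous (-2.64) and 3 of 10 proliferation genes (-3.48). Of 3 lymphatic markers tested there, 1 was higher and 0 lower (1.25). The summed level of the 14 proliferation genes was 66.2 to 159.99 CPM per mouse against 156.7 to 1959 in other EC. Mki67, a protein of dividing cells, had a read in 5 Car4+ cells (1.51%), in 2.63% of Car4- capillaries and in 12.4% of all other EC at 50000 reads. The lymphatic genes Flt4 and Lyve1 were shared with other EC, with differences of 0.86 and -0.91, and the Car4- marker Tmem100 stood at 0.65.

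Transport through the cell had its own pattern. Plvap (chr8:71497765-71511752), which forms the diaphragms of caveolae and fenestrae, was at 17.6 and 117.7 CPM at P1, 5.14 and 0 at P7, 158.1 and 8.94 at P21, and 75.9 and 91.96 after hyperoxia against 828 to 2553 in other EC (log2 -5.70, SE 0.87), and 11.1% of Car4+ cells had a read against 87.7% of Car4- capillaries. The coat genes of caveolae, Cav1 and Cavin1, differed by -1.08 and -1.07, which is short of the fold. Gpihbp1, which holds lipoprotein lipase on the capillary wall, was at 272.98 ± 60.6 against 1766 ± 570.5 CPM (-2.41), and the fatty acid carrier Fabp4 was at -10.47, while the fatty acid receptor Cd36 was at 0.40. Of 21 tested genes of caveolae, lipid and ion transport, 1 was past the fold and higher, Car4 itself, and 7 lower (median -1.07). Of all tested genes 0.992% were higher and 7.94% lower.

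Vessel tone genes were mostly low. Of 22 tested, Ednrb was past the fold and higher and 8 were lower, against 0.992% and 7.94% of all tested genes (median -2.21). Among the lower were the cyclooxygenase Ptgs1 (-10.34), the nitric oxide synthase Nos3 (17.003 ± 26.2 against 70.4 ± 38.9 CPM, -3.27), the natriuretic clearance receptor Npr3 (-7.30) and the phosphodiesterase Pde3a (-2.53). Ramp2, the partner of the adrenomedullin receptor, was at 0.74. In coagulation and fibrinolysis, the urokinase receptor Plaur (2.15) was past the fold and higher. Against Car4- capillaries alone Plaur stood at 1.90, short of the fold. Lower were 4 of 14, Vwf, the protein C receptor Procr (-10.20), the ATP-cleaving Entpd1 (-6.44) and Serpine2 (-3.95), with a list median of -2.23, and thrombomodulin, Thbd, was at 0.62.

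Junction, adhesion, BMP and Notch lists held no gene past the fold and higher, where 0.992% of all genes were. Their medians lay between -0.19 and 0.40 where that of all genes was -0.38. Of 17 junction genes 3 were past the fold and lower, where 7.94% of all genes were, Gja1 (-6.59), Jam2 (-2.50) and Cdh13 (-4.95), with a median of 0.40. The tight junction protein Cldn5 was at 5559 ± 1562 against 2652 ± 349.3 CPM (log2 1.29), and its mean was the highest of the 8 subtypes. The adhesion protein Icam2 was at 3625 ± 1266 against 1378 ± 406.97 CPM (1.63). Of 12 tested genes of antigen presentation and adhesion 3 were lower, H2-Eb1, Selp and Vcam1 (list median 0.21). In the BMP and TGF-beta list, the receptors Acvrl1 (1.14) and Tgfbr2 (1.30) were short of the fold, and 4 of 19 genes were lower, among them the ligands Bmp4 (-5.14), Bmp6 (-4.50) and Tgfb2 (-5.92), with a median of -0.02. Notch genes were split alike, with the ligands Dll1 (-5.70) and Jag1 (-2.17) and the target Hey1 lower, 3 of 14 in all, and the Notch-modifying enzyme Mfng at 1.54 (median -0.19).

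Matrix genes of the basement membrane were uneven. Of 25, Itga3 was past the fold and higher and 9 were lower, against 0.992% and 7.94% of all tested genes (median -0.58). Among the lower were the laminin receptor chain Itga6 (-5.59), the fibronectin receptor chain Itga5 (-2.32) and the laminin Lama4 (-3.73). The common collagen IV chains Col4a1 (0.47) and Col4a2 (0.80) and nidogen Nid1 (1.13) were close to other EC. Receptors of sphingosine phosphate and related lipids had 0 of 13 genes past the fold (median -0.04), with S1pr1 at 1.11 and S1pr4 at 1.53. The 14 p53 targets (median 0.26) and the 19 tested genes of tissue dissociation and heat shock (0.36) had none past the fold either. With the shares of all genes given above, 0 past the fold in lists of this size says little about their members.

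Age was the first test of the Car4+ cells that the label did not use. Sums of the 8 postnatal mice entered 1 edgeR quasi-likelihood fit, and a gene was called at a Benjamini-Hochberg adjusted p under 0.05 over 12284 genes. In sums over cells, less RNA in each cell and fewer cells with the gene cannot be told apart. Between P7 and P1, 0 genes (0%) were called. Genes with an unadjusted p under 0.05 made up 3.49% upward and 2.79% downward, 772 in all. DESeq2 adjusted p under 0.05 held for 2.08% and limma's for 0, and the CD31-gate cells of no P7 mouse shared a run with those of a P1 mouse. The only shared run, that of the P1 male mouse, held 6 mesench-gate Car4+ cells of the P7 male mouse, so run and age cannot be told apart among CD31-gate cells. Between P21 and P7, and between P21 and P1, 1 gene (0.00814%) was called by edgeR, the same gene, Gap43. With limma 1 and 17 genes were called, and Gap43 was among the 17 (adjusted p = 0.0043) but not the 1 (adjusted p = 0.116). Against P7, 2.68% of genes were upward and 2.56% downward at an unadjusted p under 0.05, and DESeq2 called 2.1%. Against P1 it was 2.9% and 2.31%, and DESeq2 called 1.76%.

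Gap43 (chr16:42248442-42340651), the growth-associated protein known from the growing tips of nerve fibres, was lower at P21. Its levels in Car4+ cells were 201.7 and 545.9 CPM at P1, 64.96 and 30.5 at P7, 0.219 and 0.0564 at P21, and 104.8 and 309.98 after hyperoxia, so the P21 mice lay below all 6 others. The log2 change was -11.42 from P1 to P21 (SE 1.20, edgeR adjusted p = 0.00498) and -8.46 from P7 to P21 (SE 1.08, edgeR adjusted p = 0.0417). The P21 sums rest on 11 and 3 reads, so the fitted size depends on very few reads.

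Cell by cell, 41 of 59 and 11 of 17 Car4+ cells had a Gap43 read at P1, 9 of 42 and 2 of 24 at P7, 2 of 57 and 3 of 77 at P21, and 10 of 19 and 22 of 37 after hyperoxia. In the P7 male mouse 99.6% of the reads came from 1 cell, and both of its cells with reads were of the mesench gate. With CD31-gate cells alone the P21 and P7 comparison had an edgeR adjusted p of 0.452 and that of P21 and P1 of 0.109, so the calls were lost, with log2 changes of -7.57 and -11.27. Within a run, the P21 female mouse had 11 Gap43 reads (0.263 CPM) and the P1 female mouse 7069 (215.1 CPM), whereas the P21 and P7 male mice had 1 and 0 reads. The level after hyperoxia, 104.8 and 309.98 CPM, was above P7 in normal air, with an unadjusted p of 0.0302 and an edgeR adjusted p of 0.731, which is not a call.

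In Car4- capillaries of the same mice Gap43 had 13.5 and 67.5 CPM at P1, 10.6 and 5.64 at P7, 27.6 and 23.2 at P21, and 18.1 and 16.2 after hyperoxia, and the P21 mice lay within the range of the others. The test of the difference between the classes, an interaction fitted over both sums of each mouse, called 1 of 14711 genes (0.0068%) for P21 against P7 and 1 (0.0068%) for P21 against P1, Gap43 in both. The differences were -10.36 (edgeR adjusted p = 0.00976) and -11.05 (edgeR adjusted p = 0.00608) on the log2 scale. At an unadjusted p under 0.05 it was 3.47% and 2.5% of genes. With CD31-gate cells alone the adjusted p of Gap43 were 1.0 and 0.240, and both calls were lost as well without the P1 male mouse (0.0523 and 0.132) or the P21 male mouse (0.115 and 0.0733). The fitted differences were -7.97 and -11.35 in CD31-gate cells, -10.37 and -11.56 without the P1 male mouse and -9.67 and -10.36 without the P21 male mouse. The call against P7 was also lost without the P7 female (0.0618) or male mouse (0.138) and with limma (0.153). For P7 against P1 and for hyperoxia 0 genes (0%) differed between the classes by edgeR and 0 by limma, whereas DESeq2 called 1.14% and 1.7%, and 3.24% and 3.69% had an unadjusted p under 0.05.

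**Figure D4:**
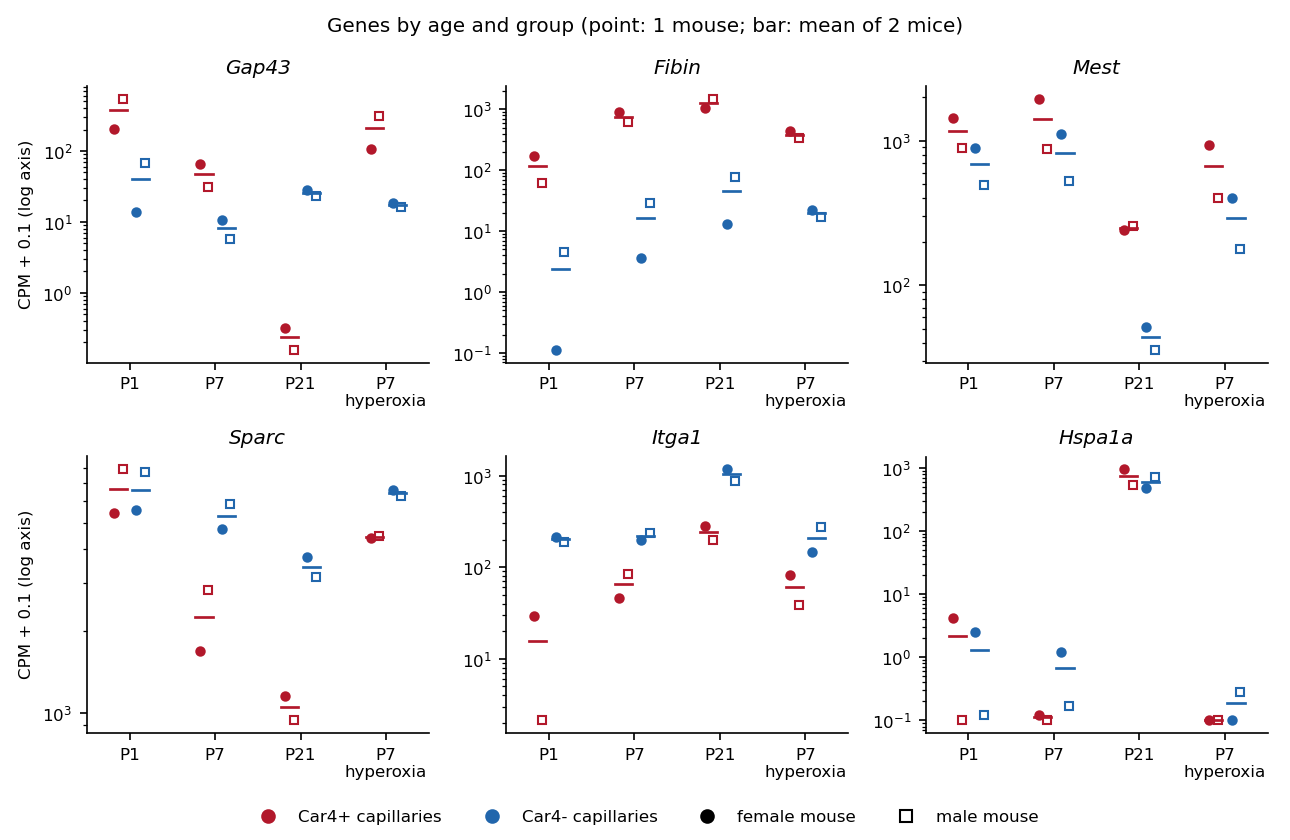
Levels of Gap43, Fibin, Mest, Sparc, Itga1 and Hspa1a (y axis, CPM + 0.1, log scale) in the Car4+ and Car4- capillaries of each mouse by group (x axis); circles are female and open squares male mice, and bars are means over 2 mice. Gap43 is below 0.3 CPM in the Car4+ cells of both P21 mice, while Hspa1a exceeds 400 CPM at P21 in both classes.

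By edgeR none of the 6 markers was called with age. Fibin was lowest at P1, at 173.5 and 62.8 CPM, and 1038 and 1501 at P21, a log2 change of 3.57 with an edgeR adjusted p of 0.145, so it was not called, whereas 11 of the 15 alternative settings called it, DESeq2 and limma among them. For P7 against P1, 5 of 15 did. The share of Car4+ cells with a Fibin read at 50000 reads was 18.6% and 11.8% at P1, 80.95% and 58.3% at P7 and 84.2% and 80.5% at P21. In the female mice that shared a run Fibin was 185.01 CPM at P1 and 860.0 at P21. Car4 had 4271 and 3397 CPM at P1 and 6077 and 9079 at P21 (log2 1.08, edgeR adjusted p = 0.895), and Tbx2 701.4 and 657.4 at P1 and 409.2 and 211.997 at P21 (-1.09, edgeR adjusted p = 0.895). For these markers the mice of P1 and P21 did not overlap, which was so for 19.3% of all tested genes upward and 17.4% downward.

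At P21 the genes filled in by the naming rule, none of which edgeR called against P1 in the fit reported here, included Nid2, a nidogen of basement membrane. It had 144.5 and 61.97 CPM at P1, 75.4 and 67.1 at P7, 0.0996 and 1.13 at P21, and 57.9 and 83.97 after hyperoxia in Car4+ cells (P21 against P1 -7.20, edgeR adjusted p = 0.213) and 51.4 and 74.8 CPM at P1, 50.9 and 20.1 at P7, 1.05 and 1.41 at P21, and 35.7 and 54.8 after hyperoxia in Car4- capillaries, where the P21 mice were lowest as well. On the same side were Ctsw, Aprt and Trpm4, a lymphocyte cathepsin, an enzyme of adenine salvage and a cation channel. On the other side were Hspa1a and Hspa1b, copies of the inducible heat shock protein Hsp70 whose reads can be split between them, the esterase Ces2g, the lactate transporter Slc5a12 and Adamtsl5. Hspa1a, overlapped by Gm20481 on the opposite strand, had 4.08 and 0 CPM at P1, 0.024 and 0 at P7, 961 and 538.6 at P21, and 0 and 0 after hyperoxia, and edgeR gave adjusted p = 0.213 against P1 and 0.0564 against P7. Of 15 alternative settings, 12 called Hspa1a against P1 and 12 against P7, 8 called Adamtsl5 against P1 and 5 called Nid2. Hspa1a had a read in 28 of 57 and 44 of 77 Car4+ cells at P21 and in 2 of 59 and 0 of 17 at P1. Car4- capillaries had 477.5 and 708 CPM of Hspa1a at P21.

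Against P7, the filled names were Hspa1a, Hspa1b, the interferon-inducible Ifi213, the nuclear RNA Neat1 and Ces2g on the upper side, and Nid2, Arid3a, Zdhhc12, Ncbp2 and the endothelial matrix protein Mmrn2 on the lower side. Neat1 had 1.42 and 1.81 CPM at P7 and 93.04 and 130.9 at P21 (edgeR adjusted p = 0.858). Both P7 mice lay below both P1 mice as well (log2 change -5.03 from P1 to P7, edgeR adjusted p = 0.73). Mmrn2 had 111.3 and 95.6 at P7 and 16.1 and 0.583 at P21 (adjusted p = 0.858). For P7 against P1 they were Mrpl50, Pgpep1, Kat7, Msmo1 and Cyr61 upward, and Mcu, Jam2, Uaca, Cwc27 and Arl13b downward, each with an edgeR adjusted p of 0.73. Of these, the junction gene Jam2 had 88.1 and 291.04 CPM at P1 and 7.93 and 3.88 at P7, and the sterol synthesis gene Msmo1 14.8 and 2.54 at P1 and 143.4 and 119.6 at P7.

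Several lists leaned with age without a gene called by edgeR in the fit reported here. Of 15 alternative settings, 7 called Icam1 for P21 against P1, 7 Sparc, 4 Itga1, 2 H2-K1 and 2 Mest. Of 10 tested genes of antigen presentation and adhesion, 4 had an unadjusted p under 0.05 upward at P21 against P1 and 0 downward, against 2.9% and 2.31% of all tested genes, with a median log2 change of 1.10 against 0.13 for all genes. H2-K1, a class I antigen-presenting chain, had 319.6 and 329.5 CPM at P1, 657.2 and 202.8 at P7, 1326 and 1473 at P21, and 170.9 and 281.5 after hyperoxia (edgeR adjusted p = 0.625), B2m, its partner, 2085 and 2161 at P1 and 3941 and 4874 at P21, and the adhesion receptor Icam1 58.8 and 1.34 at P1 and 592.03 and 584.3 at P21. In the female mice of 1 run Icam1 was 52.1 CPM at P1 and 588.8 at P21.

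The basement membrane list stood on the lower side, with a median of -1.02. At an unadjusted p under 0.05, 4 of 23 were downward and 1 upward (2.31% and 2.9% of all tested genes). Without overlap of mice 12 were below and 1 above (17.4% and 19.3% of all tested genes). Sparc, a secreted matrix-binding protein, had 5419.9 and 7896 CPM at P1, 1689 and 2838 at P7, 1157 and 938 at P21, and 4394 and 4470.2 after hyperoxia, with both P21 mice lowest (P21 against P1 -2.65, edgeR adjusted p = 0.213), and Car4- capillaries 5583 and 7691 CPM at P1, 4745 and 5883 at P7, 3737 and 3162 at P21, and 6603 and 6311 after hyperoxia. The upward member was Itga1, a collagen receptor chain, at 29.3 and 2.01 CPM at P1 and 282.7 and 196.7 at P21 (adjusted p = 0.688). Of 10 imprinted growth genes 3 were downward and 0 upward at an unadjusted p under 0.05, against the same 2.31% and 2.9% of all tested genes (median -1.33). Mest was at 1442 and 889.8 CPM at P1, 1964 and 873 at P7, 241.2 and 258.7 at P21, and 937 and 401.3 after hyperoxia. Other single genes with an unadjusted p under 0.05 were Cd36, at 601.6 and 317.96 CPM at P1 and 1692 and 3617 at P21, Calcrl, the adrenomedullin receptor, at 963 and 1032 at P1 and 2696 and 4285 at P21, Meis1, at 108.5 and 152.2 at P1 and 477.2 and 480.5 at P21, and the arterial factor Sox17, at 220.5 and 417.9 at P1 and 36.3 and 8.21 at P21. Their edgeR adjusted p were 0.308, 0.804, 0.873 and 0.49.

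Other measures stood apart at P21 as well. Of 20 genes of dissociation and heat shock 8 were upward at P21 against P1 and 0 downward at an unadjusted p under 0.05 (median 0.98). Of all tested genes 2.9% were upward and 2.31% downward. The summed level of the 20 genes in Car4+ cells was 7802 and 8467 CPM at P1, 8014 and 5832 at P7, 15889 and 11815 at P21, and 8375 and 8666 after hyperoxia. Of 14 interferon-stimulated genes 3 were upward and 0 downward (median 1.60), with Irf1 at 267.3 and 241.7 CPM at P1 and 847 and 816 at P21. Summed immune markers were 22.3 and 55.2 CPM in the P21 mice and at most 8.99 in the others. The P21 sums also held most cells of the mesench gate. Within the P21 male mouse Ednrb was 1609 CPM in CD31-gate and 4583 in mesench-gate Car4+ cells, and within the P21 female mouse Fibin was 860.0 and 1924. The part of these in the age differences was not tested.

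Hyperoxia at P7 called 0 genes (0%) in Car4+ cells with edgeR and 0 with limma, while DESeq2 called 2.16% of genes and 757 genes had an unadjusted p under 0.05. Target genes of p53, which DNA damage switches on, stood mostly above normal air, with none called by edgeR in the fit reported here. Of 15 alternative settings 1, without a filter on low counts, called Cdkn1a. Of 14 such genes, 11 were above P7 in normal air without overlap of mice and 1 below, where 19.8% of all tested genes were above and 12.4% below. At an unadjusted p under 0.05 there were 3 upward and 0 downward (2.28% and 3.88% of all genes), and the median log2 change was 1.52 against -0.06 for all genes. The list stood upward at P21 in normal air as well. Against P1, 7 of 14 were above without overlap and 1 below (19.3% and 17.4% of all genes), with a median of 1.43. Against P7, 9 were above and 2 below (20.9% and 12.8%), with a median of 1.08.

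Cdkn1a, the cell cycle inhibitor p21, had 1010.5 and 4753 CPM at P1, 987 and 1004 at P7, 3097 and 1799.7 at P21, and 2787 and 4598 after hyperoxia in Car4+ cells. The hyperoxia mice lay above both P7 mice in normal air, but the P1 male mouse was higher than either. The change was 1.63 (SE 0.65, edgeR adjusted p = 0.731). Bax, which permeates mitochondria in cell death, had 178.7 and 126.8 CPM at P1, 121.1 and 177.4 at P7, 241.02 and 121.01 at P21, and 459.7 and 620.999 after hyperoxia, and Phlda3 224.2 and 171.9 CPM at P1, 213.997 and 171.7 at P7, 430.8 and 218.1 at P21, and 463.9 and 797 after hyperoxia. For Bax and Phlda3 the hyperoxia mice were above all 6 mice in normal air. Zmat3 had 23.04 and 7.76 CPM in normal air and 68.5 and 153.3 in hyperoxia, and Eda2r 1.85 and 0.259 in normal air and 41.5 and 25.5 in hyperoxia, while Mdm2, which degrades p53, overlapped at 102.9 and 19.4 in normal air and 115.8 and 71.4 in hyperoxia. Car4- capillaries had 209.4 and 211.9 CPM of Cdkn1a in normal air and 2339 and 3403 in hyperoxia, and 158.6 and 160.005 in normal air and 556.8 and 736 in hyperoxia of Bax. In the male mice of 1 run, Cdkn1a in CD31-gate Car4+ cells was 535.8 CPM in normal air and 4598 in hyperoxia, and Bax 218.5 and 620.999.

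**Figure D5:**
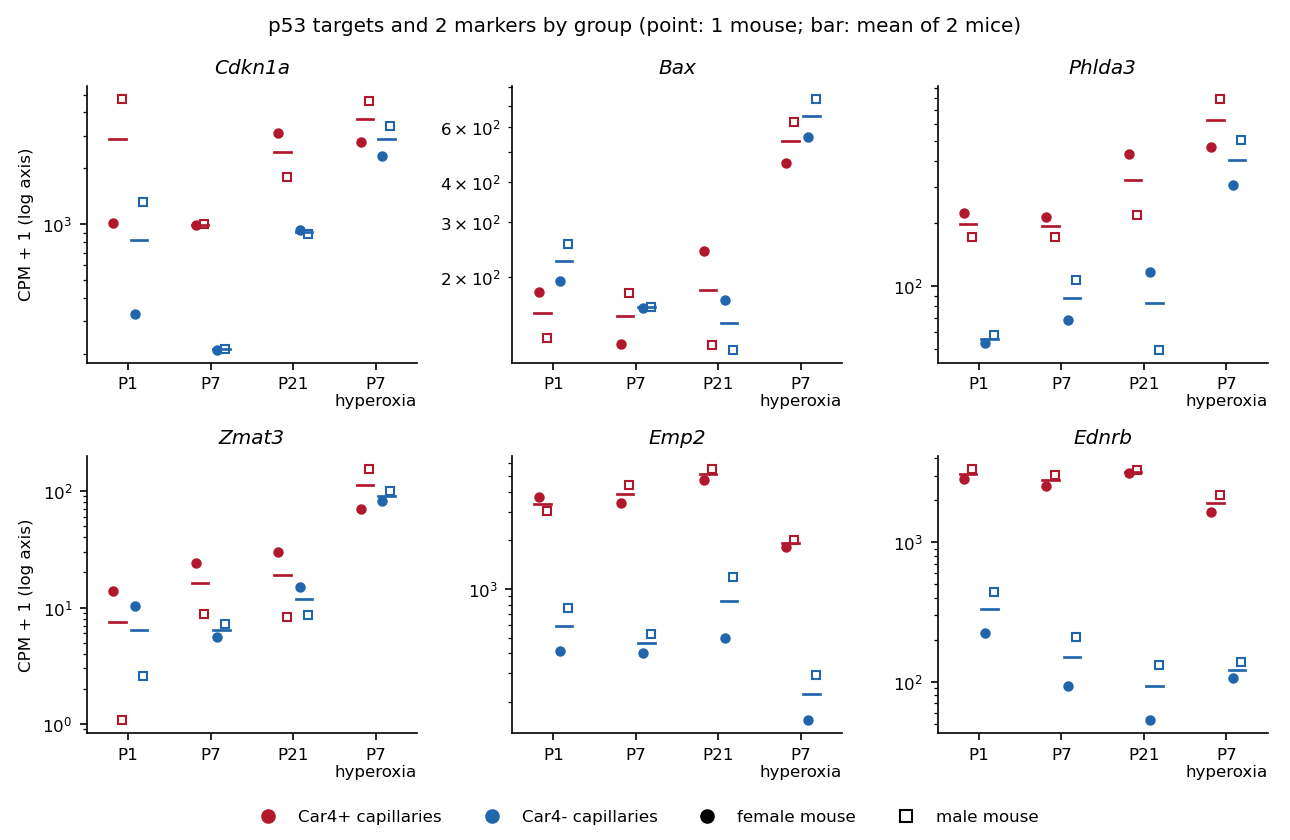
Levels of Cdkn1a, Bax, Phlda3, Zmat3, Emp2 and Ednrb (y axis, CPM + 1, log scale) in the Car4+ and Car4- capillaries of each mouse by group (x axis); circles are female and open squares male mice, and bars are means over 2 mice. In Car4+ cells the hyperoxia mice lie above both P7 mice in normal air for the first 4 genes and below them for Emp2 and Ednrb.

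The markers of the kind stood mostly on the lower side, with none called by edgeR. Of the 6, 3 lay below P7 in normal air without overlap and 1 above (12.4% and 19.8% of all tested genes). At an unadjusted p under 0.05, 2 were downward and 0 upward (3.88% and 2.28%), and the median was -0.88. Emp2 had 3408 and 4398 CPM in normal air and 1829 and 2004 in hyperoxia, the lowest of the 8 mice (-1.31, SE 0.41, edgeR adjusted p = 0.731). Fibin had 888 and 618.6 in normal air and 433.4 and 335.6 in hyperoxia (adjusted p = 0.731), and Ednrb 2547 and 3021 in normal air and 1658 and 2163 in hyperoxia. Apln was the marker above, at 641.6 and 454.02 CPM in normal air and 949 and 778 in hyperoxia, and in Car4- capillaries it was 69.1 and 75.9 in normal air and 375.1 and 214.2 in hyperoxia. Nrp1 had 2154 and 2083 CPM in normal air and 1397 and 1149 in hyperoxia, Kdr 2548 and 3017 in normal air and 2049.7 and 2182.3 in hyperoxia, and Calcrl 1588 and 1401 in normal air and 360.4 and 963 in hyperoxia. At 50000 reads, 100% and 97.3% of the Car4+ cells of the hyperoxia mice had an Emp2 read.

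The filled names of the hyperoxia comparison were Gfpt2, the entry enzyme of hexosamine synthesis, Itga6, Bhlhe40, Cd63 and Snhg15 upward and Ifi203, Senp7, Gpx7, Fam8a1 and S100a1 downward, with edgeR adjusted p from 0.301 to 0.731. Gfpt2 had 0.571 and 0 CPM at P1, 0.312 and 0 at P7, 1.91 and 3.18 at P21, and 257.6 and 87.6 after hyperoxia, from 7 of 19 and 7 of 37 cells in the hyperoxia mice. Gpx7, a peroxidase of the endoplasmic reticulum, had 111.7 and 333.6 CPM in normal air and 5.77 and 8.53 in hyperoxia. In CD31-gate cells alone the P7 male mouse had 45.4 CPM of Gpx7, so most of its level came from mesench-gate cells. The P7 mice in normal air held 5 and 6 mesench-gate Car4+ cells and the hyperoxia mice 0 and 0. The part of the gate in the hyperoxia differences was not tested. Fam8a1 was 20.8 and 21.6 CPM in the CD31-gate cells of the male mice of 1 run, so its difference was not seen there. Summed epithelial markers were 173.4 and 148.1 CPM in normal air and 392.1 and 434.9 in hyperoxia, with Ager, a gene of flat alveolar epithelium, at 7.25 and 11.1 in normal air and 151.7 and 158.8 in hyperoxia. Summed erythroid and platelet markers reached 453.5 CPM in the hyperoxia male mouse. Their part in the hyperoxia differences was not tested.

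Sex was the last comparison. Male against female Car4+ cells, with the group as a term, gave 1 called gene (0.00814%), Xist, the RNA of the silenced X chromosome (log2 -12.96, edgeR adjusted p = 3.85e-05), which matches the sex labels. At an unadjusted p under 0.05 there were 4.01% of genes, DESeq2 called 1.66% and limma 1 gene.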

How the data were processed

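The authors' deposited values are raw read counts, as whole numbers, for each gene in each cell, not normalized. Per the submitters' processing notes, STAR 2.5.2b and HTSeq 0.10 were used. These notes name the build GRCh38, a human one, for mouse samples, so the build behind the counts is not settled here. Gene positions are those of GENCODE M21 (build GRCm38), in which 18017 of 18072 symbols (99.7%) were found. Group, subtype, sex, gate and run are per the labels.

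Reads were summed per mouse and class and scaled to CPM. Tests on these sums used the quasi-likelihood F test of edgeR 4.0.16 after TMM scaling and filterByExpr, with limma 3.58.1 and DESeq2 1.42.0 as alternatives, in R 4.3.3, and tables were handled in Python 3.11.15. The other alternatives were RLE normalization, no filter on low counts, CD31-gate cells alone, cells thinned to 50000 reads, a replicate block, and leaving out each mouse. The limma alternative used log2 of the mean CPM over cells with a pseudocount of 1. The fitting steps were tested on simulated data.

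The 6 markers and 27 gene lists were chosen with earlier results of these data known. The named genes were, against other EC, the 15 higher and 10 lower genes of greatest difference among those past the fold with at least 50 CPM in the higher class and a read in 50% (lower genes 25%) of its cells. For age and hyperoxia they were called genes whose mice do not overlap, with at least 50 CPM and a read in 25% of cells, filled to 5 per direction with uncalled genes of unadjusted p under 0.05. Predicted, Riken, ribosomal and mitochondrial genes were left out. Same-sex mice of different groups share no animal or litter that the labels name, so sex was not taken as pairing them. A result for 1 gene of the lists is not reported here.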

Additional observations from a re-analysis of the deposited data

Results flagged for a closer look

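The change of Gap43 with age differed between Car4+ and Car4- capillaries of the same mice, by an interaction test in edgeR. The Car4- class was mostly Early cells at P1 and P7 and mostly Late cells at P21, so age and label cannot be told apart in it. The difference was -10.36 on the log2 scale for P21 against P7 (adjusted p = 0.00976) and -11.05 for P21 against P1 (adjusted p = 0.00608). In Car4+ cells Gap43 had 201.7 and 545.9 CPM at P1, 64.96 and 30.5 at P7, 0.219 and 0.0564 at P21, and 104.8 and 309.98 after hyperoxia, and in Car4- capillaries 13.5 and 67.5 CPM at P1, 10.6 and 5.64 at P7, 27.6 and 23.2 at P21, and 18.1 and 16.2 after hyperoxia. Of these, the Car4+ sums of P21 held 11 and 3 reads. Over the alternatives the adjusted p reached 1.0 for P21 against P7 and 0.240 for P21 against P1.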

How the results depend on the processing

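Values are the percent of tested genes past the fold or called at an adjusted p under 0.05. The description against other EC and against Car4- capillaries kept its counts within 1.5 times under every alternative, at 6.33% to 8.93% and 4.46% to 6.11%, and at 9.74% to 10.8% and 6.71% to 7.14% when 1 mouse was left out. With no replicate block (mouse not a term) these were 7.44% and 4.91%. The number of called genes, 0 or 1 in each comparison, moved, while the called genes mostly held: Xist in 14 of 14 alternatives, and Gap43 in 14 of 15 for P21 against P1, 13 of 15 for P21 against P7, and 11 and 8 of 14 for its class differences. DESeq2 gave 2.08% for P7 against P1, 2.1% for P21 against P7, 1.76% for P21 against P1, 2.16% for hyperoxia, 1.66% for sex, and 1.14%, 1.26%, 0.992% and 1.7% for the class differences of P7 against P1, P21 against P7, P21 against P1 and hyperoxia. Without a filter on low counts the same order gave 0.283%, 0.353%, 0.389%, 0.159% and 0.0707%, and class differences of 0.00559% for P7 against P1 and 0.0168% for hyperoxia. With cells thinned to 50000 reads, P21 against P7 gave 0.134%, P21 against P1 0.288%, sex 0.0384%, and the class differences 0.166%, 0.181%, 0.244% and 0.237%. CD31-gate cells alone gave 0.0166% for P21 against P7, 0.0248% for P21 against P1 and 0% for the class difference of P21 against P7. limma gave 0.138% for P21 against P1, and 0% and 0.0136% for the class differences of P21 against P7 and P21 against P1. RLE normalization gave 0.0163% for P21 against P7, and so did sex as a replicate block, which changed no other count by more than 1.5 times. Leaving out 1 mouse gave 0% to 0.514% for P7 against P1, 0.0147% to 0.136% for P21 against P7, 0.0294% to 0.363% for P21 against P1, 0% to 0.104% for hyperoxia, 0.00738% to 0.0223% for sex, and class differences of 0% to 0.0321%, 0% to 0.0130%, 0% to 0.0772% and 0% to 0.0319%. The variance of the shares between ages was 47.1, 58.5 over cells of any gate, 12.7 over capillary cells and 19.3 to 82.4 with 1 mouse left out (the exact test cannot go below p = 0.0667 in any of these, so it shows nothing on stability). The cause of these shifts was not tested. Several genes not called in the fit reported here were called under others: Hspa1a in 12 of 15 for P21 against P1 and 12 of 15 against P7, Fibin in 11, Adamtsl5 in 8, and Icam1 and Sparc in 7 each for P21 against P1. Of the named genes, the hyperoxia change of Mdm2 reversed to -0.22 without the P7 male mouse and reached 1.92 without the P7 female mouse. The groups hold 2 mice each, and reads without molecular identifiers are not independent molecules.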
